A study of Macaca fascicularis with 16 samples.

Results

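The genes described here are 10 that androgens regulate in human prostate or breast cells or that mark apocrine secretion. PIP, AZGP1 and APOD encode secreted proteins, SPDEF a transcription factor, HPGD, SORD and TMPRSS2 enzymes, and CLDN8, TPD52 and SEC14L2 proteins of cell junctions, vesicles and lipid handling. They were taken as every probe set that the platform annotation gives exactly 1 of these symbols, which found 23 of the 52865 probe sets. All 10 symbols were present in the cynomolgus RefSeq gene table. Mammary tissue came from 16 ovariectomized, postmenopausal female cynomolgus macaques, 4 in each group, with 1 rhesus macaque array for each animal. Tibolone was given at 0.2 mg/kg. CEE+MPA was conjugated equine estrogens at 0.042 mg/kg with medroxyprogesterone acetate at 0.167 mg/kg, and CEE was the estrogens alone at 0.042 mg/kg. Control animals, also ovariectomized, had no treatment. The labels used here state neither the age of the animals nor how long they were treated. The array carries rhesus probes. Whole tissue was measured, so fewer cells of a type and less RNA per cell cannot be told apart.

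Androgens such as testosterone and dihydrotestosterone are steroid hormones that change transcription of target genes in prostate, breast and other tissues. In human breast, androgen-regulated genes are prominent in apocrine epithelium, which secretes PIP, AZGP1 and APOD into cyst fluid. Tibolone is a synthetic steroid whose metabolites have estrogenic, progestogenic and androgenic activity. MPA is a synthetic progestin that also has androgenic and glucocorticoid activity. The steroids were given at different doses, and the values below are therefore set side by side.

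The deposited values were linear signals that had nearly the same trimmed mean on every array. Between 48.6% and 51.8% of probe sets on an array exceeded a signal of 60.2, the median of the table. Of 24 luminal epithelial markers 18 were tested, and 17 of these, all but KRT23, were above 60.2 on all 16 arrays. The arrays were split by the signal of the bacterial spike-in transcript dap into a low and a high set, which the labels do not name. The low set held 2 CEE+MPA, 2 CEE and 2 control arrays, and the high set held all 4 tibolone arrays and 2 arrays of each other group. The tibolone arrays lay apart from both. Their log2 dap signals spanned 7.62 to 7.87, where the low set ended at 7.38 and the other high-set arrays began at 7.95. For a second spike-in transcript, thr, tibolone spanned 6.45 to 6.57, between 6.14 and 6.73. Tibolone values from the block or the high set therefore do not match arrays for spike-in level. Skeletal muscle markers, with 15 of 26 tested, had a mean above 1 on the log2 scale, relative to the average array, on tibolone replicates 2 and 3, CEE+MPA replicate 1 and control replicate 1.

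Across the 6 comparisons, SPDEF rose with CEE+MPA against control, and APOD was higher and CLDN8 lower with tibolone than with CEE+MPA. No other member passed the test, and no member passed it in tibolone, or in CEE alone, against control. The test was limma's moderated test of log2(signal + 16), adjusted by Benjamini and Hochberg over 28704 probe sets at 0.05, with each gene read from its brightest tested probe set. Of the 23 probe sets, 18 were bright enough to be tested and each of the 10 genes had at least 1. The p-values measure the spread between these animals, and the number of arrays limits the precision.

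For tibolone against control 0 of 10 members passed, where 0.00957% of the 10452 genes tested did. There 3 members (SPDEF, HPGD and CLDN8) had an unadjusted p under 0.05, where 4.83% of genes did. With CEE+MPA against control 1 member passed, which was higher, beside 7.69% of genes (2.74% higher and 4.96% lower). There 4 members (PIP, APOD, SPDEF and SEC14L2) had an unadjusted p under 0.05, against 28.3% of genes. For CEE against control 0 members passed and 0.0574% of genes did, and 3 members (PIP, SPDEF and TPD52) had an unadjusted p under 0.05 against 14.2% of genes. Adding MPA to CEE gave 0 members against 0.0287% of genes, with 2 members (CLDN8 and TPD52) at an unadjusted p under 0.05 against 7.58%. Tibolone against CEE gave 0 members and 0% of genes, with 2 members (APOD and HPGD) at an unadjusted p under 0.05 against 13%. In tibolone against CEE+MPA 2 members passed, 1 higher and 1 lower, beside 7.35% of genes (3.98% higher and 3.37% lower). There 4 members (APOD, HPGD, CLDN8 and TPD52) had an unadjusted p under 0.05, against 28% of genes. The split of all calls depended on scaling: of the probe sets called in CEE+MPA against control 69.2% were lower, and 49.8% after median centring, and for tibolone against CEE+MPA these were 40.3% and 61.6%. The comparisons share arrays, and counts of 0 to 2 among 10 members are no result about the list as a whole. The same holds for the counts of 2 to 4 members with an unadjusted p under 0.05. The median log2 fold change of the 10 members lay between -0.10 (tibolone against CEE+MPA) and 0.17 (CEE+MPA against control), and that of all genes between 0.00 and 0.01.

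**Figure D1:**
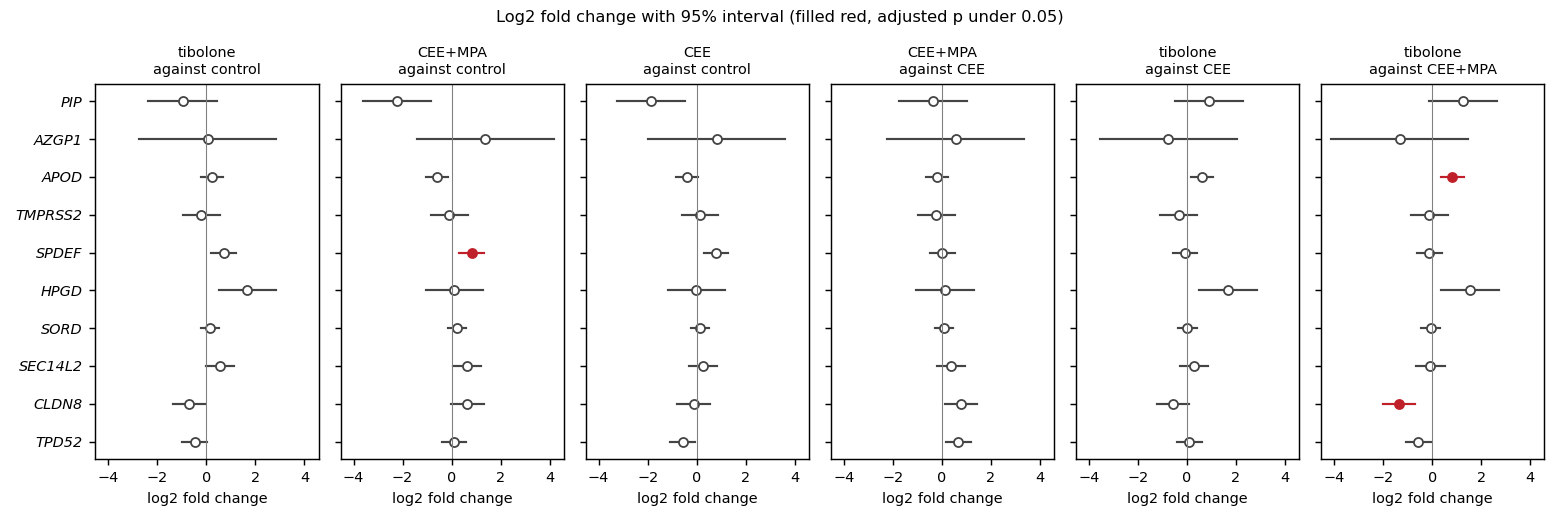
Log2 fold change of each gene's brightest tested probe set in the 6 comparisons, first-named group over the second, with the 95% interval from limma; filled red points have an adjusted p under 0.05. SPDEF is the filled point in CEE+MPA against control, and APOD and CLDN8 are those in tibolone against CEE+MPA, while the AZGP1 intervals are the widest of the 10 genes.

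PIP, the prolactin-induced protein secreted by apocrine epithelium, read lower on every CEE+MPA array than on any control array, a difference that missed the threshold. Its brightest probe set read 1569, 12720, 1486 and 3350 with tibolone, and 1663, 1362, 590 and 2188 with CEE+MPA. It read 3010, 3488, 947 and 802 with CEE, against 3112, 9578, 8612 and 5853 in control tissue. The CEE+MPA and control arrays did not overlap, the highest CEE array (3488) lay above the lowest control array (3112), and tibolone replicate 2 exceeded every other array while replicates 1 and 3 lay among the CEE+MPA values. The log2 difference was -2.24 ± 0.66 for CEE+MPA against control (SE; limma adjusted p = 0.0540) and -1.88 ± 0.66 for CEE against control (adjusted p = 0.276). It was -0.97 ± 0.66 for tibolone against control (adjusted p = 0.913). Within the spike-in sets the difference of CEE+MPA from control was -1.89 in the low set (adjusted p = 0.524) and -2.58 in the high set (adjusted p = 0.0891). With a block for these sets the PIP difference was -2.24 ± 0.58 and passed (adjusted p = 0.0334), and without the arrays of high skeletal muscle signal it was -2.68 and passed (adjusted p = 0.0374). It did not pass with the luminal (adjusted p = 0.0905) or skeletal muscle marker mean (adjusted p = 0.0643) as a covariate. Of 8 runs with 1 array left out 0 passed (adjusted p between 0.0532 and 0.158).

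A second PIP probe set did not follow the first (Pearson r = 0.12 and Spearman rho = -0.05 over the 16 arrays, as a description). It differed by -0.02 between CEE+MPA and control on the log2 scale, and the mean of both sets gave -1.13 (adjusted p = 0.0867). The third PIP probe set was too dim to test. Skin keratinocyte markers, of which 4 of 15 were tested (KRT1, KRT10, CALML5 and DMKN), had means of -0.07 to 0.71 with tibolone. They were at -0.55 to -0.17 with CEE+MPA, -0.41 to -0.04 with CEE, and 0.19 to 0.34 in control tissue. Over all arrays KRT1 (45.2 to 77.6) and DMKN (21.6 to 120) were dim, and KRT10 read 1040 to 1767. CALML5 varied most (140 to 2457), so this mean leans on 1 gene. The part of skin tissue in the PIP signal was not tested.

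APOD, apolipoprotein D, is a lipocalin that binds steroids and fatty acids and is a major protein of human breast cyst fluid. It was higher with tibolone than with CEE+MPA. The signals were 15530, 13749, 12636 and 15028 with tibolone, and 9241, 7076, 8600 and 7285 with CEE+MPA. With CEE they were 12806, 5197, 10684 and 10077, against 11296, 13356, 11607 and 12385 in control tissue. All 4 CEE+MPA arrays lay below all tibolone and all control arrays, and the CEE arrays spanned from below the CEE+MPA range into that of control tissue.

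The APOD signal averaged 14236 ± 1304 with tibolone and 8051 ± 1042 with CEE+MPA (SD, n = 4 each), a log2 difference of 0.83 ± 0.21 (SE; limma adjusted p = 0.0360). CEE+MPA against control gave -0.60 ± 0.21 (adjusted p = 0.0980), tibolone against CEE 0.62 ± 0.21 (adjusted p = 0.291), and tibolone against control 0.23 ± 0.21 (adjusted p = 0.924). APOD is also made by fibroblasts. Fibroblast and matrix markers, with 17 of 20 tested, had means of -0.15 to 0.36 with tibolone and -0.57 to -0.02 with CEE+MPA, against 0.13 to 0.48 in control tissue, and their part in the APOD difference was not tested. The call for tibolone against CEE+MPA was lost when any array of these groups except tibolone replicate 4 was left out (adjusted p between 0.0533 and 0.0911). With a block for the spike-in sets the APOD difference was 0.77 (adjusted p = 0.0808) and within the high set it was 0.86 (adjusted p = 0.106). Neither value matches the arrays for spike-in level, since the tibolone arrays lay apart from the rest of the high set.

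AZGP1, a secreted glycoprotein that promotes fat breakdown and marks apocrine differentiation, varied more between animals than any other member. Its signals were 58.4, 1079, 115 and 973 with tibolone, and 6788, 1180, 691 and 56.9 with CEE+MPA. They were 228, 446, 335 and 2202 with CEE, against 945, 34.6, 1209 and 139 in control tissue. Signals from 34.6 to 139 occurred with tibolone, with CEE+MPA and in control tissue, whereas the lowest CEE array read 228. The 16 arrays spanned a 196-fold range. Of the variance on the log2 scale 8.81% lay between groups. The second AZGP1 probe set followed the first (r = 0.94, rho = 0.97, 16 arrays). With a standard error of 1.31, the 95% interval for CEE+MPA against control ran from -1.41 to 4.16 on the log2 scale, which holds differences of more than 2-fold in both directions.

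**Figure D2:**
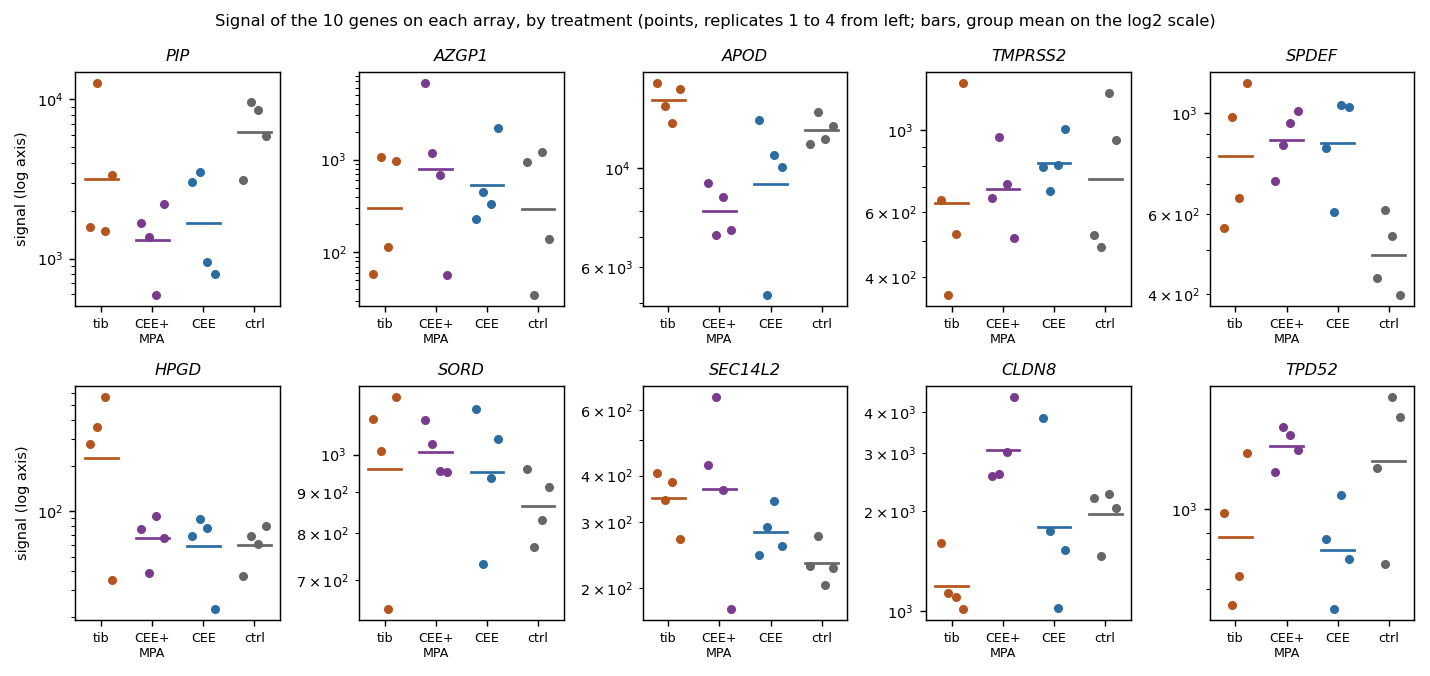
Signal of each gene's brightest tested probe set on the 16 arrays (log axes, 1 panel per gene), with tibolone (tib), CEE+MPA, CEE and control (ctrl) from left to right; points are animals and bars are group means on the log2 scale. The APOD panel shows CEE+MPA arrays at 7076 to 9241 below tibolone arrays at 12636 to 15530, and AZGP1 shows a wide spread between animals in every group.

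SPDEF, an ETS family transcription factor of secretory luminal cells and of human prostate epithelium, rose with CEE+MPA against control. The signals were 560, 980, 650 and 1165 with tibolone, and 709, 851, 949 and 1011 with CEE+MPA. They were 839, 607, 1042 and 1028 with CEE, against 433, 613, 536 and 399 in control tissue. Every CEE+MPA array exceeded every control array, while 1 tibolone array and 1 CEE array lay below the highest control array.

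The mean SPDEF signal was 880 ± 132 with CEE+MPA and 495 ± 98.0 in control tissue (SD, n = 4 each), a log2 difference of 0.82 ± 0.23 (SE; limma adjusted p = 0.0495). CEE against control gave 0.80 ± 0.23 (adjusted p = 0.216) and tibolone against control 0.70 ± 0.23 (adjusted p = 0.822). CEE+MPA against CEE gave 0.02, with a 95% interval of -0.48 to 0.52. All 3 SPDEF probe sets gave log2 differences from control between 0.60 and 0.82 in the 3 treated groups, and the other 2 followed the brightest with r = 0.90 each. The call for CEE+MPA was lost when any of the 8 arrays was left out (adjusted p between 0.0551 and 0.121), and the difference was 0.85 within the low (adjusted p = 0.458) and 0.78 within the high spike-in set (adjusted p = 0.172). The luminal marker mean lay at 0.08 to 0.20 with CEE+MPA and -0.15 to 0.11 in control tissue, and with it as a covariate the SPDEF difference was 0.83 (adjusted p = 0.0718).

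HPGD, the dehydrogenase that inactivates prostaglandins and is induced by androgen in human prostate cancer cells, was high in 3 of the 4 tibolone animals. Its tested probe set read 279, 361, 573 and 35.0 with tibolone, and 75.9, 38.9, 92.8 and 66.4 with CEE+MPA. It read 68.5, 88.7, 77.1 and 22.5 with CEE, against 37.5, 68.3, 60.2 and 79.3 in control tissue. Tibolone replicates 1, 2 and 3 lay above all 12 arrays of the other groups, and replicate 4 lay at the low end of them.

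With all 4 animals the log2 difference of tibolone in HPGD was 1.67 ± 0.55 against control (SE; limma adjusted p = 0.822), 1.68 against CEE (adjusted p = 0.284) and 1.55 against CEE+MPA (adjusted p = 0.0988). Each array was left out in turn, and without tibolone replicate 4 these were 2.41 (adjusted p = 0.0167), 2.42 (adjusted p = 0.0219) and 2.30 (adjusted p = 0.00255). That run leaves out the only low tibolone array, so its p-values are given as a description. Of 8 runs in each comparison it was the only 1 that passed. The highest limma adjusted p of the runs was 0.9998 against control, 0.570 against CEE and 0.263 against CEE+MPA. The other 4 HPGD probe sets were below the limit for testing. In all 5 probe sets tibolone replicates 1, 2 and 3 lay above every array of the other groups and replicate 4 did not. The smallest gap was 43.0 for the lowest of those 3 tibolone arrays against 41.8 for the highest other array, in the second probe set. Probe sets of 1 gene are not independent, and the 5 were not combined.

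Tibolone replicate 4 had the lowest adipocyte, myeloid, skeletal muscle and fibroblast marker means of the 4 tibolone arrays. For luminal, basal and skin markers replicate 3 was lower (luminal mean -0.82, against -0.18 on replicate 4). The adipocyte marker mean of replicate 4, with 16 of 22 tested, was -0.90, against 0.18, 0.67 and 0.97 on tibolone replicates 1, 2 and 3. Its myeloid marker mean, with 16 of 20 tested, was -0.39 against 0.10, 0.14 and 0.74. Its skeletal muscle mean was -0.80 against -0.31, 2.27 and 1.46, and lay within the range of the CEE arrays (-1.10 to -0.78). Without the arrays of high skeletal muscle signal, which removes tibolone replicates 2 and 3, the HPGD difference from control was 0.53 (adjusted p = 0.835). The part of these tissues in the HPGD signal was not tested.

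**Figure D3:**
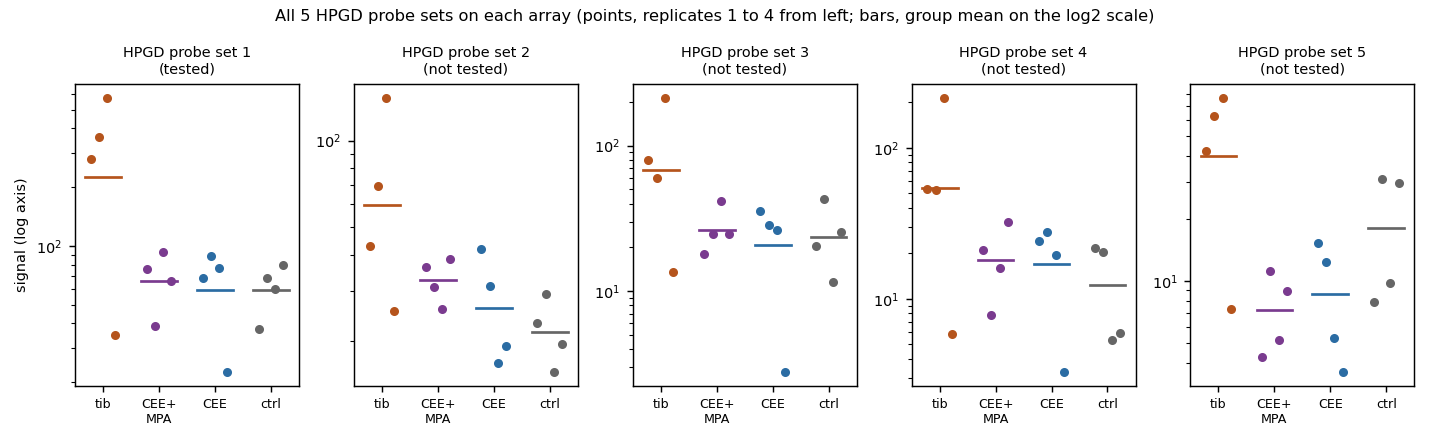
Signal of the 5 HPGD probe sets (log axes) on the 16 arrays, with tibolone (tib), CEE+MPA, CEE and control (ctrl) from left to right; points are animals and bars are group means on the log2 scale. In each panel 3 tibolone animals lie above the 12 other-group arrays, while tibolone replicate 4, the rightmost tibolone point, lies within their range.

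SORD, sorbitol dehydrogenase, converts sorbitol to fructose and is androgen-regulated in human prostate. It was the steadiest member, with signals between 646 and 1179 on all 16 arrays, a 1.83-fold range. Tibolone arrays lay at 646 to 1179 and CEE+MPA arrays at 952 to 1103. CEE arrays lay at 733 to 1137, against 769 to 961 in control tissue. The log2 differences from control were 0.15 with tibolone, 0.22 with CEE+MPA and 0.13 with CEE, each with a standard error of 0.18, and none passed (limma adjusted p between 0.506 and 0.940).

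TMPRSS2, an androgen-regulated serine protease of the cell surface in human prostate, showed no difference past the test in any comparison. Its brightest probe set read 647, 358, 522 and 1341 with tibolone, and 656, 958, 716 and 509 with CEE+MPA. It read 795, 683, 801 and 1004 with CEE, against 518, 483, 1253 and 940 in control tissue. The groups overlapped throughout, and the difference of CEE+MPA from control was -0.89 within the low and 0.71 within the high spike-in set. The third and dimmest TMPRSS2 probe set gave -0.84 ± 0.29 for tibolone against control (SE; limma adjusted p = 0.834), where the brightest gave -0.21 ± 0.35.

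CLDN8, a claudin of epithelial tight junctions that is androgen-induced in human prostate cells, was lower with tibolone than with CEE+MPA. The signals were 1605, 1129, 1103 and 1012 with tibolone, and 2558, 2602, 3020 and 4452 with CEE+MPA. They were 3822, 1748, 1020 and 1523 with CEE, against 2188, 1463, 2252 and 2045 in control tissue. Every CEE+MPA array lay above every tibolone and every control array, whereas CEE arrays ranged from among the lowest to above 3 of the 4 CEE+MPA arrays.

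The mean CLDN8 signal was 1212 ± 267 with tibolone and 3158 ± 887 with CEE+MPA (SD, n = 4 each), a log2 difference of -1.35 ± 0.31 (SE; limma adjusted p = 0.0249). Tibolone against control gave -0.71 ± 0.31 (adjusted p = 0.913) and CEE+MPA against control 0.65 ± 0.31 (adjusted p = 0.218). CEE+MPA against CEE gave 0.77 ± 0.31 (adjusted p = 0.562). The call was lost without CEE+MPA replicate 3 or 4 or tibolone replicate 2 or 3 (adjusted p = 0.0581, 0.0554, 0.0768 and 0.0712, in that order). The difference was -1.09 with a block for the spike-in sets (adjusted p = 0.0618) and -1.22 within the high set (adjusted p = 0.0698). As for APOD, these values do not match the tibolone and CEE+MPA arrays for spike-in level. With the luminal mean as a covariate the CLDN8 difference was -1.36 (adjusted p = 0.0716). The luminal mean was -0.82 to 0.40 with tibolone and 0.08 to 0.20 with CEE+MPA.

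TPD52, a protein of vesicle trafficking and secretion that is androgen-regulated in human prostate, gave different values with different probe sets. The brightest read 981, 653, 742 and 1285 with tibolone, and 1182, 1440, 1393 and 1302 with CEE+MPA. It read 874, 640, 1067 and 800 with CEE, against 1203, 781, 1652 and 1504 in control tissue. By this probe set CEE+MPA arrays lay above all CEE arrays, with a log2 difference of 0.66 ± 0.24 (SE; limma adjusted p = 0.508). The second probe set gave 0.33 and the third -0.13 for this comparison, with overlapping groups in both. CEE against control was -0.56 by the brightest probe set and 0.57 by the third, which did not follow it (r = -0.15, rho = -0.16), while the second did (r = 0.84). Neither value passed.

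SEC14L2, a lipid-binding protein that carries tocopherol, had signals of 408, 343, 384 and 270 with tibolone, and 428, 652, 365 and 175 with CEE+MPA. They were 245, 291, 343 and 260 with CEE, against 229, 276, 203 and 226 in control tissue. The lowest array of each treated group lay below the highest control array, and CEE+MPA replicate 4 lay below all control arrays. The log2 difference from control was 0.55 ± 0.27 with tibolone (SE; limma adjusted p = 0.913), 0.63 ± 0.27 with CEE+MPA (adjusted p = 0.175) and 0.26 ± 0.27 with CEE (adjusted p = 0.736). Without CEE+MPA replicate 4 the CEE+MPA value was 0.96 (adjusted p = 0.0163). Of 8 runs with 1 array left out this was the only 1 that passed, and the values ran from 0.36 to 0.96 (limma adjusted p up to 0.430).

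The groups of CEE+MPA and control did not overlap for 4 members, with SPDEF and CLDN8 higher and PIP and APOD lower, where 19.5% of all genes did not overlap (9.04% higher and 10.5% lower). For tibolone against CEE+MPA this held for APOD, which was higher, and CLDN8, which was lower, where 14.8% of all genes did not overlap (7.78% higher and 7.03% lower). For CEE+MPA against CEE it held for TPD52 alone, higher by its brightest probe set only, where 5.61% of genes did not overlap (2.43% higher). No member separated the groups for tibolone against control (3.11% of genes), CEE against control (10.5%) or tibolone against CEE (5.88%).

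**Figure D4:**
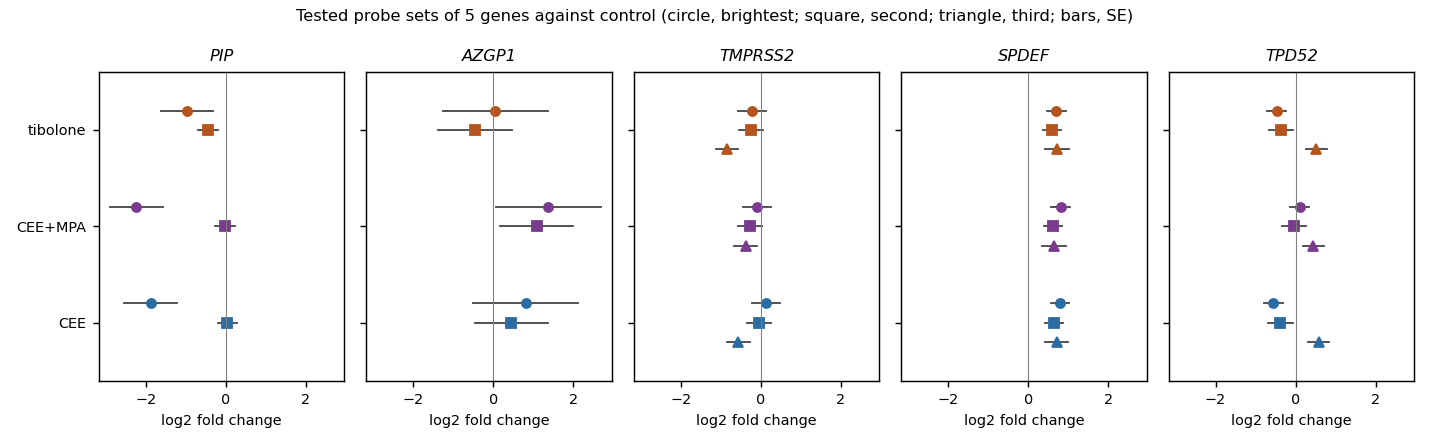
Log2 fold change against control for every tested probe set of the 5 genes with more than 1 (circle, brightest; square, next; triangle, dimmest; bars, SE), with tibolone, CEE+MPA and CEE from top to bottom. The 3 SPDEF probe sets lie between 0.60 and 0.82, whereas those of PIP and of TPD52 part from each other (CEE+MPA against control, -2.24 and -0.02 for PIP).

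Of 45 pairs of members, 0 passed a two-sided permutation test of Pearson's r over the 16 arrays after Benjamini-Hochberg adjustment. The lowest was TMPRSS2 with HPGD (r = -0.58, permutation p = 0.0183, adjusted p = 0.667; rho = -0.48, adjusted p = 0.520), which was -0.39 without the 2 most extreme arrays. The highest was TMPRSS2 with TPD52 (r = 0.55, permutation p = 0.0301, adjusted p = 0.667; rho = 0.50, adjusted p = 0.520), which was 0.41 without them. Within the low and high spike-in sets the first pair gave -0.32 and -0.64, and the second 0.43 and 0.61. The permutations ran across the groups, so differences between groups and between animals of a group were mixed. With the group means taken off, r was -0.62 for the first pair and 0.81 for the second, and these values were not tested. None of the 10 members passed the same test against the luminal marker mean: SORD was closest by Pearson (r = 0.60, permutation p = 0.0170, adjusted p = 0.170; 0.19 without the 2 most extreme arrays), and PIP by Spearman (rho = -0.66, adjusted p = 0.0641).

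Among the other 10442 genes, those whose log2 signals were most like PIP over the 16 arrays were SDCBP (r = 0.85), S100A9 (r = 0.84) and IRAK3 (r = 0.84). For APOD they were SERP2 (r = 0.92), GJD3 (r = 0.82) and ABCA6 (r = 0.80), and for AZGP1 they were LOC719082 (r = 0.76), BCDIN3D (r = 0.76) and WDR73 (r = 0.75). These are the highest of many values and are given as a description.

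ESR1, the estrogen receptor alpha gene, had 1 probe set with signals of 15.7 to 64.1, too dim to test. PGR, the progesterone receptor gene and a target of estrogen action, read 5.80 to 179 with tibolone, 8.75 to 27.5 with CEE+MPA and 36.6 to 152 with CEE, against 13.7 to 21.3 in control tissue. All 4 CEE arrays exceeded all CEE+MPA and control arrays, but no comparison passed: CEE against control gave 1.51 ± 0.48 on the log2 scale (SE; limma adjusted p = 0.241), and CEE+MPA against CEE -1.55 ± 0.48 (adjusted p = 0.438). PGR exceeded 60.2 on 4 arrays, the fewest that testing allowed, all of them CEE or tibolone arrays. Every CEE+MPA and control array was dimmer than 60.2, so the offset shrinks both differences.

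From the list of genes of androgen metabolism and of cofactors of steroid receptors, 6 were tested. With CEE+MPA against control 2 rose and 0 fell, beside 2.74% of all genes called higher and 4.96% lower. For tibolone against CEE+MPA 1 was higher and 2 were lower, beside 3.98% higher and 3.37% lower. Such counts among 6 genes are no result about that list. FKBP4, a co-chaperone of steroid receptors, read 1032 to 1402 with tibolone, 1958 to 2181 with CEE+MPA and 1285 to 1807 with CEE, against 971 to 1431 in control tissue. It rose by 0.83 ± 0.15 with CEE+MPA against control (SE; limma adjusted p = 0.00853) and differed by -0.67 ± 0.15 with tibolone against CEE+MPA (adjusted p = 0.0243). NCOA4, a nuclear receptor coactivator that also directs ferritin breakdown, gave 0.39 ± 0.11 (adjusted p = 0.0457) and -0.55 ± 0.11 (adjusted p = 0.0151) in the same comparisons. Its CEE arrays, at 4380 to 4648, also lay above the control arrays, at 3422 to 4049. FOXA1, a pioneer factor for the estrogen receptor in human cells, read 818 to 2477 with tibolone and 372 to 606 with CEE+MPA, a log2 difference of 1.58 ± 0.43 (adjusted p = 0.0428). It read 462 to 1773 in control tissue.

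Of 48 other androgen-regulated genes 20 were tested. Among these 1 rose and 1 fell with CEE+MPA against control (2.74% of all genes were called higher and 4.96% lower). With tibolone against CEE+MPA 2 were higher and 0 lower (3.98% and 3.37% of all genes). Counts of 2 of 20 are no result about that list. The luminal keratin KRT19 rose by 0.63 ± 0.17 (limma adjusted p = 0.0409) and the secreted protease ADAMTS1 fell by 1.14 ± 0.32 (adjusted p = 0.0438) with CEE+MPA against control. KRT19 also read higher on all CEE arrays (16964 to 19402) than on the control arrays (13414 to 15852). With tibolone against CEE+MPA, ADAMTS1 differed by 1.18 ± 0.32 (adjusted p = 0.0405) and ZBTB16, a zinc finger repressor that glucocorticoids, progestins and androgens can induce, by 1.17 ± 0.34 (adjusted p = 0.0499).

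Of 43 other apocrine and secretory luminal genes 23 were tested, and 0 rose and 3 fell with CEE+MPA against control, beside 2.74% of all genes higher and 4.96% lower. With tibolone against CEE+MPA 1 was higher and 2 were lower, beside 3.98% and 3.37%. Such counts among 23 genes are no result about that list. SLPI, a secreted protease inhibitor, read 406 to 583 with CEE+MPA, against 862 to 2463 in control tissue, a log2 difference of -1.66 ± 0.27 (SE; limma adjusted p = 0.00463). The SLPI signal was also below all control arrays with CEE alone (550 to 830), and was 736 to 1278 with tibolone. The tetraspanin TSPAN8 gave -1.23 ± 0.27 (adjusted p = 0.0179) and the cytochrome P450 gene CYP4X1 -1.54 ± 0.42 (adjusted p = 0.0411). With tibolone against CEE+MPA, TSPAN8 was higher (1.10 ± 0.27, adjusted p = 0.0310), while the adhesion molecule ALCAM (-1.22 ± 0.31, adjusted p = 0.0331) and the mucin MUC15 (-1.34 ± 0.37, adjusted p = 0.0430) were lower. In the other 4 comparisons 0 genes of these 3 lists passed. The median log2 fold change of the apocrine and secretory list was -0.18 for CEE+MPA against control and 0.45 for tibolone against CEE+MPA, each beside 0.01 for all genes. Several marker lists of other cell types had medians of the same signs. For CEE+MPA against control these were -0.57 for basal and myoepithelial markers (11 of 18 tested), -0.49 for adipocyte, -0.55 for fibroblast and matrix and -0.22 for skin keratinocyte markers. For tibolone against CEE+MPA they were 0.43, 0.44, 0.37 and 0.62 in the same order. The luminal epithelial list had medians of 0.32 and -0.31 in the 2 comparisons. Their part in the shift of the apocrine and secretory list was not tested. TSPAN8 and CYP4X1 were dim, with 12 and 10 of 16 arrays above 60.2 and all 4 CEE+MPA arrays of CYP4X1 at 24.4 to 49.3, so the offset shrinks their differences.

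**Figure D5:**
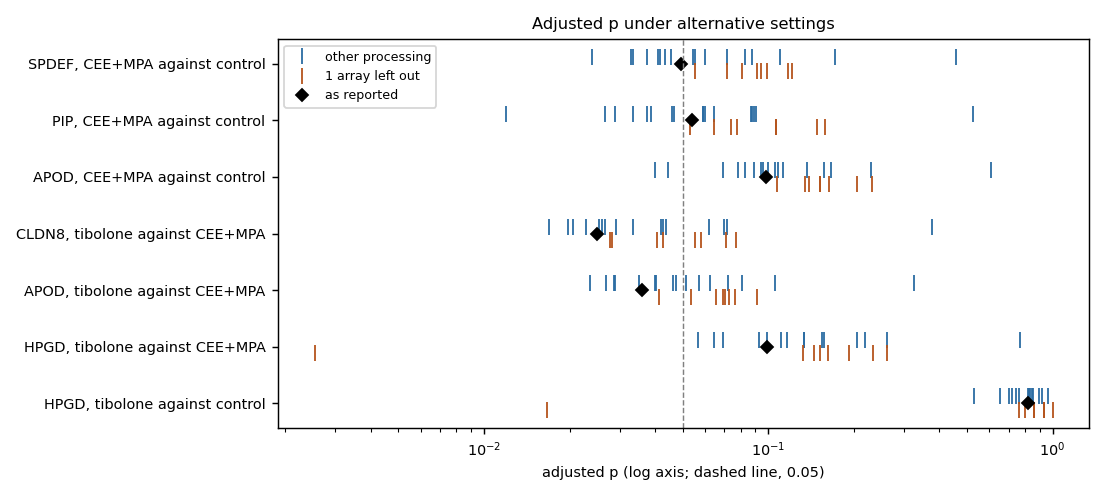
Adjusted p (log axis) of 7 gene differences as reported (diamonds), under other processing settings (blue) and with 1 array left out (orange); the dashed line is 0.05. For SPDEF, PIP, APOD and CLDN8 the values lie on both sides of the line, and for HPGD in tibolone against control 1 value, 0.0167 without tibolone replicate 4, lies below it.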

How the data were processed

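The deposited values were linear signal intensity for each probe set of an Affymetrix rhesus macaque array, not log transformed. Their 2% trimmed mean was nearly the same on every array; how the authors scaled them is not stated in the sources used here. The submitters' processing notes name GCOS and Affymetrix Expression Console, with no algorithm stated. Of 52865 probe sets, 99 controls were left out. In the platform annotation 24956 carried 1 gene symbol, 361 several and 27449 none. Testing required a signal above 60.2 on at least 4 of 16 arrays, and each gene was read from its brightest such probe set.

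Signals were transformed as log2(signal + 16), which understates fold changes of dim genes. One limma model covered the 4 groups and 28704 probe sets, with Benjamini-Hochberg adjustment per comparison at 0.05. With a block or covariate the same model was refitted. Differences within a spike-in set came from a model of group-by-set means on all 16 arrays, its error pooled over both sets. Correlations used 100000 permutations. Replicate numbers follow the order of the deposited arrays. All 10 genes were named, with up to 4 genes of smallest p past the threshold per list and comparison, PGR and ESR1, and the 3 genes most like PIP, AZGP1 and APOD. One item of the lists is not reported here. The members and lists were chosen with earlier results of these data known. Alternatives covered normalization, filter, offset, model, covariates, spike-in sets and each array left out. The pipeline was tested on simulated data. R 4.3.3, limma 3.58.1, Python 3.11.15, numpy 2.4.6 and matplotlib 3.10.9 were used.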

Additional observations from a re-analysis of the deposited data

How the results depend on the processing

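No paired analysis was possible because the labels link no animals across groups. The number of members past the threshold for CEE+MPA against control was 1 (SPDEF). It was 0 with no filter, an offset of 1, the mean of a gene's probe sets, the luminal or the skeletal muscle covariate, and within the low or the high spike-in set. It was 2, with PIP added, with a filter at the 75th percentile, an offset of 64, array weights, a trended prior, the GAPDH covariate and the spike-in sets as a block. It was 3, with PIP and APOD, with only the 2 groups compared and at a threshold of 0.10. Leaving out 1 array gave 0 to 1, where the 1 call was SEC14L2 without CEE+MPA replicate 4. SPDEF was not called in any of these 8 runs. With quantile normalization the 1 call was APOD, and without the arrays of high skeletal muscle signal it was PIP. For tibolone against CEE+MPA the number was 2 (APOD and CLDN8), with 1 (CLDN8) under median centring, no filter and the skeletal muscle covariate. It was 0 under the luminal covariate and without the arrays of high skeletal muscle signal. It was also 0 under the spike-in block and within the high set, where spike-in levels of tibolone and CEE+MPA arrays still differed. It was 3, with HPGD added, at a threshold of 0.10, and 0 to 3 with 1 array left out (3, again with HPGD, without tibolone replicate 4). Leaving out 1 array gave 0 to 1 for tibolone against control and for tibolone against CEE, where the call was HPGD without tibolone replicate 4. CEE against control and CEE+MPA against CEE stayed at 0 in every alternative run. Of 1524 values of single members under alternatives, 39 lost a call, 17 gained one and 0 called values changed sign; 81 uncalled values changed sign. In 36 of 60 combinations of gene and comparison the sign was kept in all alternatives. The cause of these changes was not tested. HPGD, AZGP1, PGR, TSPAN8 and CYP4X1 had arrays below a signal of 60.2, where the offset shrinks differences.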
